A study of Mus musculus with 11 samples.

Results

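Genes of inflammatory cell death, Casp1, Casp4, Casp8, Gsdmd, Aim2, Nlrp3, Zbp1, Ripk1, Ripk3 and Mlkl, were followed in the skin of neonatal mice after depletion of regulatory T cells (Tregs). These 10 genes were taken by name from a count table, and all 10 were among its 49315 genes. Whole dorsal skin of 11 mice was measured by bulk RNA sequencing, with 1 library per mouse. All mice carried Foxp3-DTR on a C57BL/6J background, in which the Foxp3 gene drives a fusion of the diphtheria toxin receptor and GFP, so that diphtheria toxin (DT) kills cells that express Foxp3. Control mice (n = 2) received PBS. ΔETreg mice (n = 3) received 30 ng of DT per g of body weight on postnatal days (P) 6 and 8 and were harvested on P9. ΔLTreg mice (n = 3) received it on P10 and P12, ΔTreg mice (n = 3) on P6, P8, P10 and P12, and both groups were harvested on P13. For the control mice no harvest day is given in the labels, and every comparison with control uses the same pair of mice. The study describes its comparisons with control as age-matched, on P9 for ΔETreg and on P13 for ΔLTreg. Which control mouse was harvested at which age is not given. Age and DT therefore cannot be told apart here in the comparisons with control, of ΔETreg, ΔLTreg and ΔTreg alike.

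Pyroptosis and necroptosis are lytic forms of cell death that release inflammatory contents. In pyroptosis, sensors such as NLRP3 and AIM2 assemble an inflammasome that activates caspase-1, while caspase-4 (caspase-11 in the mouse) is activated by cytosolic lipopolysaccharide, and both caspases cleave gasdermin D into a fragment that forms membrane pores. In necroptosis, RIPK1 or the nucleic acid sensor ZBP1 engages the kinase RIPK3, which phosphorylates the pore-forming effector MLKL. Caspase-8 restrains necroptosis by cleaving the RIP kinases and can itself start apoptosis. In skin, the balance between caspase-8 and RIPK3 is known for deciding whether keratinocytes survive without inflammation.

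The libraries held between 23377571 and 34159435 counts, and all 10 members passed the filter on low counts, with or without the ΔTreg libraries. Foxp3 was low in every group, with 9 to 23 counts per library, and was not called in any comparison with control. Its log2 fold change was −0.30 in ΔTreg skin (95% interval −0.995 to 0.39, adjusted p = 0.546) and −0.49 in ΔETreg skin (−1.20 to 0.22), where the 3 mice lay below both control mice. At these counts a fall of up to about 2-fold was within both intervals. By flow cytometry, the study reported efficient depletion of skin Tregs in ΔETreg mice on P9 and in ΔLTreg mice on P13. The keratinocyte gene Krt14 and the collagen gene Col1a1 were among the abundant transcripts of every library, at 2332 CPM or more and 3579 CPM or more, where CPM are counts scaled to the size of the library. Their levels were not steady between groups. In ΔTreg against control skin Col1a1 was lower (log2 fold change −1.02, adjusted p = 0.0300) and Krt14 higher (0.40, adjusted p = 0.0180). ΔLTreg replicate 3 stood apart from the other ΔLTreg mice in its tissue content. The summed level of 4 leukocyte markers (Ptprc, Coro1a, Laptm5 and Cd52) was 38.9 CPM there, against 62.4 and 82.7 CPM in the other ΔLTreg mice. The sum of 6 fibroblast markers was 8358 CPM against 16121 and 18287 CPM, and that of 5 skeletal muscle markers 4166 CPM against 3180 and 1306 CPM. Sex was not recorded by the study, and Xist and Ddx3y counts placed 1 female and 1 male in the control group, 1 female and 2 males in ΔETreg, and 2 females and 1 male in each of ΔLTreg and ΔTreg.

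In control skin, the members differed widely in level. Per kilobase of exon, Casp8 was highest at 7.46 ± 0.223 CPM per kb (SD, n = 2), followed by Ripk3 at 3.14 ± 0.182, Ripk1 at 2.53 ± 0.0503, Casp1 at 2.43 ± 0.133 and Gsdmd at 2.25 ± 0.860. Casp8 and Ripk3 were each above the next gene in both control mice, whereas the ranges of Ripk1 and Casp1, and of Casp1 and Gsdmd, overlapped. Mlkl (0.974 CPM per kb), Zbp1 (0.811) and Aim2 (0.520) followed, also with overlapping neighbours. Casp4 at 0.317 and Nlrp3 at 0.114 CPM per kb were the lowest. Nlrp3 therefore rested on few reads, with 15 and 10 counts in the control libraries. PBS-treated skin held the transcripts of the caspase-8 and RIP kinase branch at higher levels per length than those of the inflammasome sensors.

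**Figure D1:**
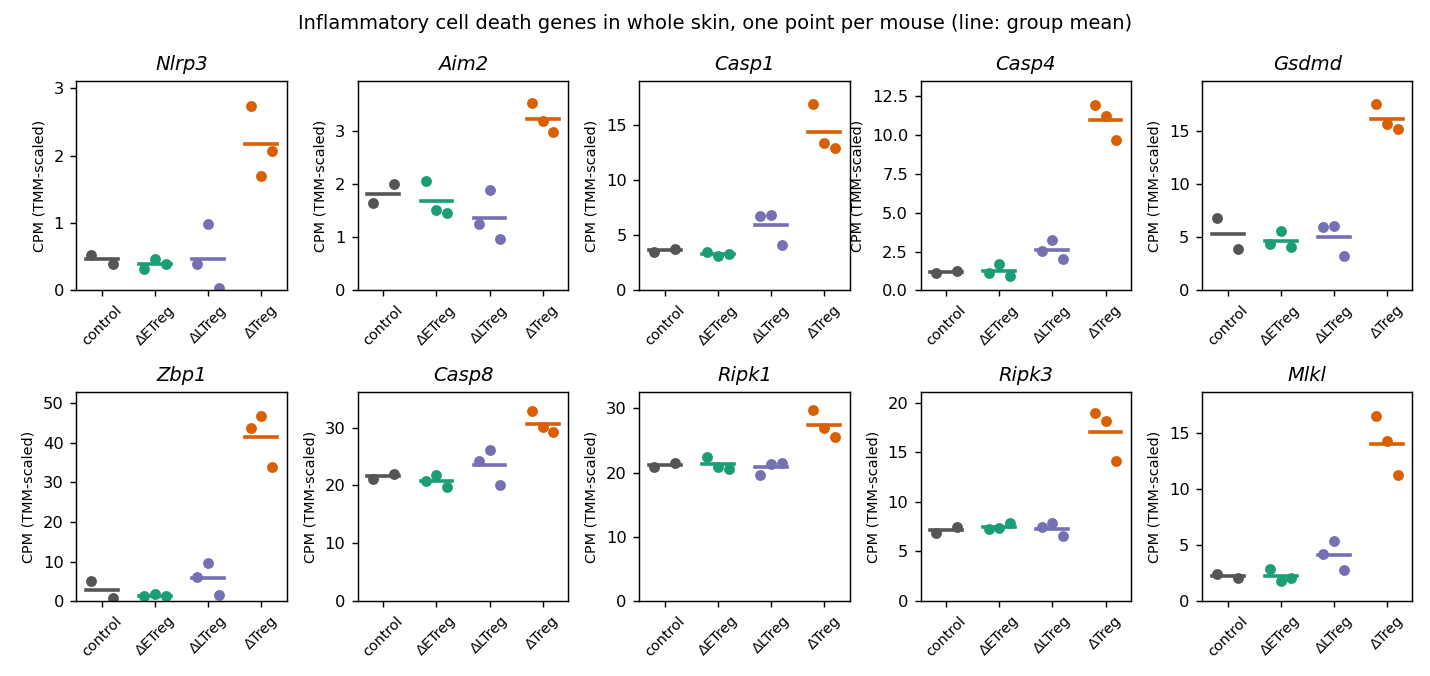
Level of each of the 10 genes in CPM (counts scaled to the TMM-adjusted library size) on a linear axis that starts at 0, with 1 point per mouse and a line at the mean of each of the 4 groups. For all 10 genes the 3 ΔTreg mice lie above every mouse of the other groups.

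Depletion over the whole window, in ΔTreg skin, was compared with control skin to ask how the death genes stood after the longest loss of Tregs. All 10 members were higher in ΔTreg skin (quasi-likelihood test of edgeR, p adjusted by Benjamini and Hochberg's method over 18375 genes and under 0.05), where 12.1% of all genes tested were called higher. The log2 fold changes ran from 0.37 to 3.82, with a median of 1.78 against −0.01 over all genes tested. The groups did not overlap for any of the 10 members, and 26.8% of all genes tested were higher without overlap. In bulk skin, fewer cells of a type and less RNA per cell cannot be told apart, and the same holds for more cells and more RNA per cell.

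Among the sensors, Zbp1 had the largest log2 fold change. Zbp1, a sensor of Z-form nucleic acids, was at 5.01 and 0.717 CPM in the control mice and at 43.7, 46.7 and 33.98 CPM in the ΔTreg mice. The control mice lay far apart from each other, yet every ΔTreg mouse was above both. The log2 fold change was 3.82 ± 0.67 (SE; 95% interval 2.33 to 5.31; adjusted p = 0.00226), and it was 3.04 without control replicate 2 and 5.84 without control replicate 1. Nlrp3, the sensor that responds to many kinds of membrane and metabolic disturbance, was at 0.525 and 0.398 CPM in control and at 2.74, 1.69 and 2.07 CPM in ΔTreg mice. Its log2 fold change of 2.20 had a wide interval, from 0.82 to 3.57 (adjusted p = 0.0285), and the call was lost without either control mouse or without ΔTreg replicate 1 or 3 (adjusted p up to 0.169). Aim2, the sensor of cytosolic DNA, had the smallest log2 fold change of the sensors. It was at 1.65 and 1.99 CPM in control and at 3.52, 3.18 and 2.97 CPM in ΔTreg mice, so that the groups lay apart by about 1 CPM. The log2 fold change was 0.82 ± 0.25 (adjusted p = 0.0389), a call that was lost when any 1 of 7 mice was left out (adjusted p up to 0.182).

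Both inflammatory caspases and their substrate rose. Casp4 was at 1.12 and 1.23 CPM in control and at 11.9, 11.2 and 9.68 CPM in ΔTreg mice, a log2 fold change of 3.21 ± 0.26 (9.26-fold; adjusted p = 1.58e-05). Both groups were tight, and the gap between them was several times the spread within either. Casp1, which matures interleukin-1β and interleukin-18, was at 3.50 and 3.78 CPM in control and at 16.9, 13.3 and 12.9 CPM in ΔTreg mice (log2 fold change 1.98 ± 0.22, adjusted p = 1.13e-04). Gsdmd, which encodes the pore former gasdermin D, was at 6.79 and 3.90 CPM in control and at 17.5, 15.7 and 15.2 CPM in ΔTreg mice. Its log2 fold change was 1.58 ± 0.28 (adjusted p = 0.00225), with the spread lying mainly between the control mice. Whether the caspases and Gsdmd changed by different amounts was not tested, and the interval of Casp4 (2.63 to 3.79) lay above that of Gsdmd (0.97 to 2.20).

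In the necroptosis branch, the kinases and the effector Mlkl all rose, by unequal amounts. Mlkl was at 2.42 and 2.07 CPM in control and at 16.6, 14.3 and 11.2 CPM in ΔTreg mice, a log2 fold change of 2.64 ± 0.29 (adjusted p = 1.14e-04). Ripk3, the kinase that activates MLKL, was at 6.90 and 7.49 CPM in control and at 18.9, 18.2 and 14.1 CPM in ΔTreg mice (1.24 ± 0.14, adjusted p = 1.06e-04). Every ΔTreg mouse thus had at least 11.2 CPM of Mlkl and 14.1 CPM of Ripk3, above all other mice. Ripk1, a kinase and scaffold downstream of tumour necrosis factor receptors, was at 20.8 and 21.4 CPM in control and at 29.7, 27.0 and 25.5 CPM in ΔTreg mice. Its log2 fold change was small, 0.37 ± 0.08 (adjusted p = 0.00639), but exceeded the spread between mice. Casp8, which cleaves the RIP kinases, was at 21.1 and 22.0 CPM in control and at 32.8, 30.02 and 29.2 CPM in ΔTreg mice (0.51 ± 0.10, adjusted p = 0.00538). The 95% intervals of Casp8 (0.28 to 0.74) and Ripk1 (0.20 to 0.55) lay wholly below those of Ripk3 (0.94 to 1.54) and Mlkl (1.99 to 3.28). Exons of Ripk1 overlap those of Gm17084 and Serpinb6a over 752 bases. Counting by strand and the annotation release were not stated. Reads there could have been left out as not unique to 1 gene, or could be theirs.

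**Figure D2:**
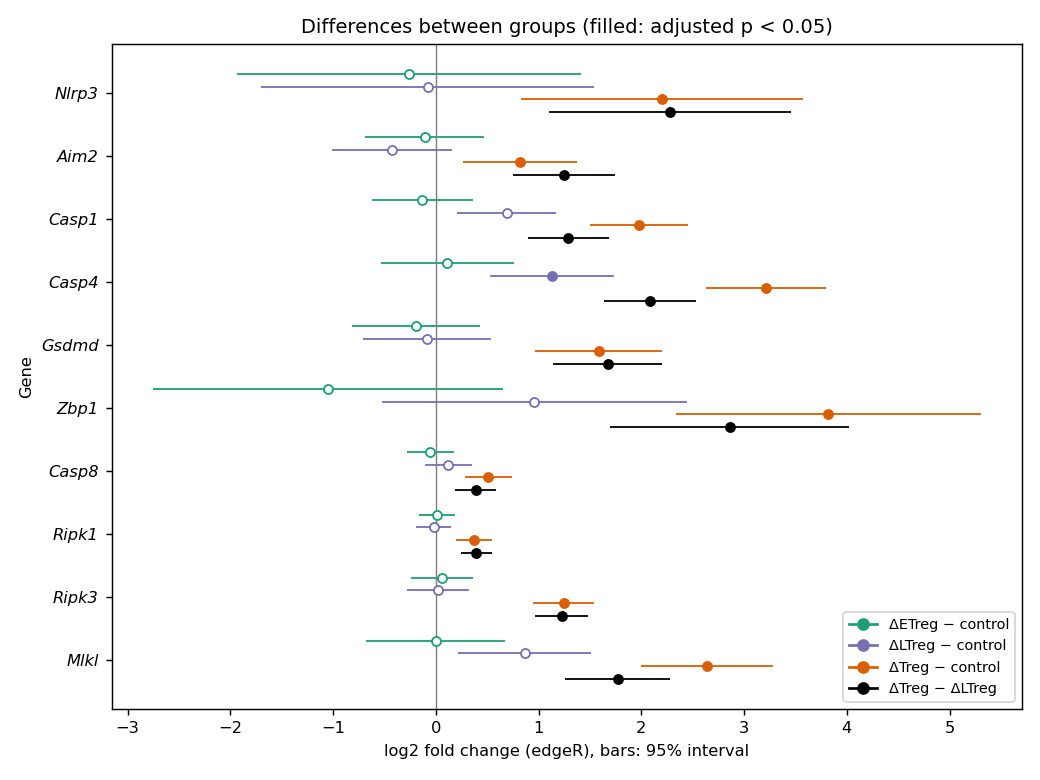
Log2 fold change of each gene (points) with its 95% interval (bars) from edgeR, for ΔETreg, ΔLTreg and ΔTreg against control and for ΔTreg against ΔLTreg, where filled points passed an adjusted p of 0.05. The points of ΔTreg against control are filled for all 10 genes, 1 point of ΔLTreg against control is filled (Casp4) and 0 of ΔETreg.

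The position of each gene is given on GRCm38. Casp1 (chr9:5298517-5307265, plus strand) and Casp4 (chr9:5308828-5336783, plus strand) are neighbours, Casp8 lies at chr1:58795374-58847503, Aim2 at chr1:173350879-173466040, Nlrp3 at chr11:59541568-59566956, Gsdmd at chr15:75862327-75867408 and Ripk1 at chr13:34002363-34037147, all on the plus strand. Zbp1 (chr2:173206612-173218923), Ripk3 (chr14:55784995-55788865) and Mlkl (chr8:111311797-111338177) lie on the minus strand. Because the members rose together, their promoters were searched on both strands for 3 motifs tied to inflammatory transcription, the interferon response element core (GAAA, any 2 bases, GAAA), the STAT site (TTC, any 3 bases, GAA) and the NF-kB site (GGGA, any 4 bases, CC). RefSeq promoters (GRCm38.p6, 250 bases before to 50 after the start) were found for 8 of the 10 members, all but Gsdmd and Zbp1. There were 11 promoters in all. The interferon response element core was in 1 of the 11 (9.09%, Ripk1), against 3.44% of 32851 promoters. The STAT site was also in 1 (9.09%, Ripk1), against 8.3%, and 1 of its matches there overlaps the interferon response element core. The NF-kB site was in 3 of the 11 (27.3%), against 20.7%. These were an Nlrp3 promoter and the Casp4 promoters, which overlap each other and hold the same match. Casp4 and Ripk1 are shown because they had the highest and the lowest log2 fold change among the members with a promoter, from 120 bases before to 10 after the start, with motif matches in capitals.
Casp4 promoter, chr9:5308729-5308858, plus strand: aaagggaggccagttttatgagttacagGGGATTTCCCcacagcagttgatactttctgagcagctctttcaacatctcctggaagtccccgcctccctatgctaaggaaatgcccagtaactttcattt
Ripk1 promoter, chr13:34002754-34002883, plus strand: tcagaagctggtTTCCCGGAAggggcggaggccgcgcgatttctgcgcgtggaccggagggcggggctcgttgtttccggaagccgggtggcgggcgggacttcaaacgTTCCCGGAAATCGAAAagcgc
In the Casp4 promoter the capitals mark an NF-kB match, and in the Ripk1 promoter a STAT match followed, next to the start, by a STAT match that runs into an interferon response element core. The Ripk1 promoter shown held matches to 2 of the 3 motifs. The other Ripk1 promoter (chr13:34002113-34002412), at the gene start given above, held 0 matches to each of the 3. How motif matches relate to the size of the rise was not tested.

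ΔTreg and ΔLTreg mice were harvested at the same age and differed in the DT doses on P6 and P8, so this comparison holds age fixed. All 10 members were higher in ΔTreg skin, where 10.7% of all genes tested were called higher. The log2 fold changes ran from 0.39 (Casp8 and Ripk1) to 2.86 (Zbp1), with a median of 1.48 against −0.00 over all genes tested. No member overlapped between the groups, against 19.2% of all genes that were higher without overlap. Casp4 was at 2.53, 3.25 and 2.00 CPM in ΔLTreg mice, and its log2 fold change was 2.08 ± 0.20 (adjusted p = 5.71e-05). Ripk3 was at 7.45, 7.84 and 6.61 CPM in ΔLTreg mice, close to control, with a log2 fold change of 1.22 ± 0.12 (adjusted p = 5.21e-05). The calls that depended on 1 mouse were Nlrp3 (adjusted p = 0.0533) and Casp8 (adjusted p = 0.0630), both without ΔTreg replicate 1.

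Against ΔETreg skin, which was harvested 4 days earlier, all 10 members were again higher in ΔTreg skin, where 13.2% of all genes tested were called higher. The log2 fold changes ran from 0.36 (Ripk1) to 4.87 (Zbp1), with a median of 1.94, and 23.4% of all genes tested were higher without overlap, as were all 10 members. The ages of the groups differ in this comparison, and the effects of age and of the later doses cannot be told apart. Each of the 10 calls was kept when any 1 mouse was left out.

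Late depletion alone, in ΔLTreg skin, gave a smaller and more uneven picture. Of the 10 members, 1 was called higher than control, Casp4, and 1.86% of all genes tested were called higher. Casp4 was above control in all 3 ΔLTreg mice, with a log2 fold change of 1.13 ± 0.27 (95% interval 0.53 to 1.74; adjusted p = 0.0435), and the call was lost in 8 of 11 fits that left out 1 mouse. It was also lost with DESeq2 (adjusted p = 0.0505), with sex as a covariate (adjusted p = 0.0552) and with the 2 groups fitted alone (adjusted p = 0.150). Casp1 was at 6.77, 6.82 and 4.07 CPM (log2 fold change 0.69 ± 0.22, adjusted p = 0.104), and Mlkl at 4.23, 5.37 and 2.79 CPM (0.87 ± 0.29, adjusted p = 0.126). Neither passed adjustment, although for both genes every ΔLTreg mouse was above both control mice. Zbp1 was at 6.02, 9.69 and 1.66 CPM, which overlapped control (0.96 ± 0.67, adjusted p = 0.479). For the remaining members the values ranged from −0.43 (Aim2) to 0.12 (Casp8), and the intervals of Ripk1 (−0.19 to 0.15) and Ripk3 (−0.28 to 0.32) lay below their log2 fold changes in ΔTreg skin.

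The ΔLTreg mice were not alike. Replicate 3 had the lowest level of 9 of the 10 members among the 3 mice, all but Ripk1, whereas it was lowest for 41.1% of all genes tested. Replicate 2 was the highest for 9 of the 10, against 30.2% of all genes. Nlrp3 had 13, 25 and 1 counts in replicates 1, 2 and 3. Replicate 3 was the mouse of the group with the lowest leukocyte and fibroblast sums and the highest skeletal muscle sum, as given above, and its only male by Xist and Ddx3y. The part of each of these in its lower levels was not tested. Without it, 3 members were called higher in ΔLTreg than in control skin, Casp1 (log2 fold change 0.90, adjusted p = 0.0107), Casp4 (adjusted p = 0.0230) and Mlkl (adjusted p = 0.0414). A like order was seen among the ΔTreg mice. There, replicate 3, the only male, was lowest for 9 of the 10 members, all but Nlrp3, against 33% of all genes tested. ΔTreg replicate 1 was highest for 9 of the 10, all but Zbp1, against 34.6%.

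Early depletion, in ΔETreg skin, was compared with control skin 1 day after the second dose. None of the 10 members was called by edgeR, and 0 had an unadjusted p under 0.05, against 0.00544% and 4.75% of all genes tested. DESeq2 called 0 as well. The log2 fold changes ran from −1.05 (Zbp1) to 0.11 (Casp4), with a median of −0.08. Casp1 was at 3.52, 3.16 and 3.30 CPM and Mlkl at 2.86, 1.77 and 2.10 CPM, both overlapping control. For the genes with tight replicates the data bounded any change closely: the 95% interval was −0.16 to 0.18 for Ripk1, −0.28 to 0.17 for Casp8 and −0.24 to 0.36 for Ripk3. For Zbp1 (−2.75 to 0.65) and Nlrp3 (−1.93 to 1.41) the intervals were wide, and a moderate change was not detectable with these mice. The Zbp1 value turned on control replicate 1, which had 5.01 CPM against 1.32, 1.68 and 1.20 CPM in the ΔETreg mice, and without it the log2 fold change was 0.97.

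Set directly against each other, ΔETreg skin was lower than ΔLTreg skin in 2 members, Casp1 (log2 fold change −0.82 ± 0.19, adjusted p = 0.0323) and Casp4 (−1.02 ± 0.24, adjusted p = 0.0307), where 3.12% of all genes tested were called lower. The 3 ΔETreg mice had 1.15, 1.71 and 0.900 CPM of Casp4, below each ΔLTreg mouse. Zbp1 (−2.01, adjusted p = 0.0954) and Mlkl (−0.87, adjusted p = 0.0713) did not pass. With the 2 groups fitted alone neither call held (adjusted p = 0.0830 for Casp1 and 0.0978 for Casp4), and without 1 mouse Casp1 was called in 6 and Casp4 in 7 of 11 fits. The groups differ in age as well as in the time of DT, and these cannot be told apart.

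**Figure D3:**
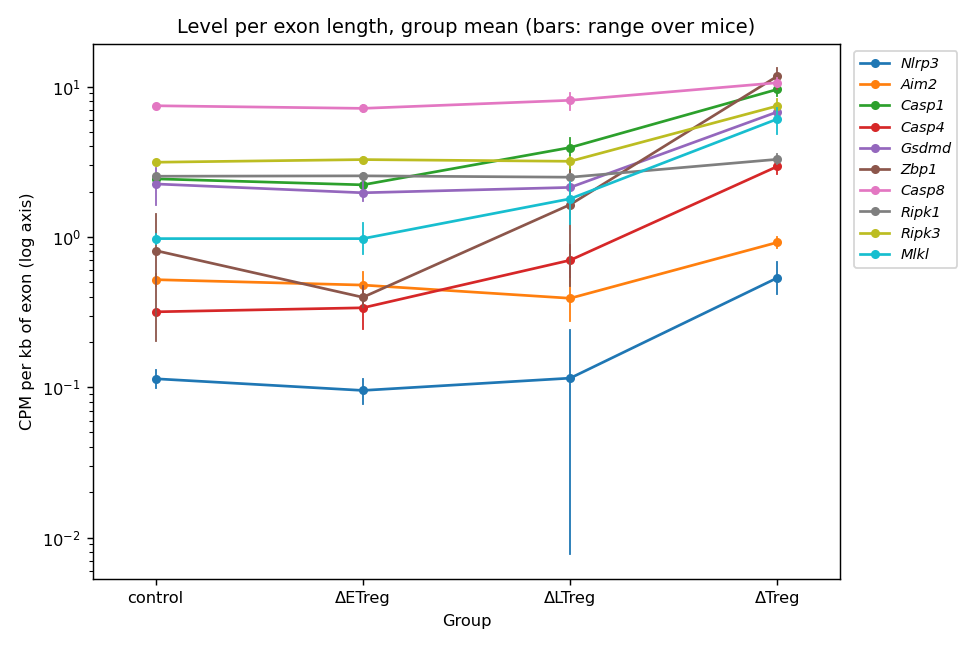
Mean level of each gene per kilobase of exon (CPM per kb, log axis) in the 4 groups, with bars from the lowest to the highest mouse. Zbp1 moves from 0.811 CPM per kb in control to 11.7 in ΔTreg skin, among the 3 highest genes, while Nlrp3 (0.535) and Aim2 (0.920) are the lowest of the 10 in ΔTreg skin.

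The order of the members changed with their unequal rise. In ΔTreg skin, Zbp1 was first at 11.7 ± 1.88 CPM per kb (SD, n = 3), with Casp8 at 10.6 ± 0.659 and Casp1 at 9.59 ± 1.45. Zbp1 overlapped Casp8, and Casp8 overlapped Casp1, so the order among these genes is not resolved. Ripk3 (7.44 CPM per kb), Gsdmd (6.79) and Mlkl (6.09) formed a second group with overlapping neighbours. Ripk1 (3.28) and Casp4 (2.95) followed and overlapped, and Aim2 (0.920) and Nlrp3 (0.535) were the lowest. Casp4 had the second highest log2 fold change against control and went from ninth to eighth in level per length, whereas Zbp1 went from seventh to first. In ΔETreg and ΔLTreg skin Casp8 was first, at 7.16 and 8.11 CPM per kb, and its lowest mouse was above the highest mouse of the next gene in both groups.

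Leukocyte transcripts moved with the members. Ptprc, the pan-leukocyte gene that encodes CD45, was at 13.9 and 10.9 CPM in control and at 52.3, 39.6 and 47.8 CPM in ΔTreg mice (log2 fold change 1.91, adjusted p = 3.01e-04). Cd8a had 0 and 2 counts in the control libraries and 238, 236 and 296 in the ΔTreg libraries, a ratio of 231 (95% counting interval 63.8 to 1913). All 4 leukocyte markers were called higher, with a summed level of 53.6 to 72.7 CPM in control and 173 to 240 CPM in ΔTreg mice. Of 10 T cell markers 9 were called higher (summed level 15.0 to 17.4 against 58.4 to 73.4 CPM), and all 6 NK cell markers were (1.95 to 2.17 against 36.4 to 37.3 CPM). Of 10 macrophage and monocyte markers 5 were called higher (176 to 231 against 455 to 606 CPM), as were the 6 tested of 8 neutrophil markers (13.4 to 14.3 against 33.8 to 42.3 CPM). Dendritic and Langerhans cell markers had 4 of 8 higher and 1 lower. B cell markers gave 0 calls among the 2 tested of 5, and Ms4a1 was at 0 in both control libraries. Keratinocyte markers had 2 of 8 higher and 2 lower, fibroblast markers 3 of 6 lower, endothelial markers 1 of 5 higher and 2 lower, and skeletal muscle markers 1 of 5 higher. The part of leukocyte content in the members' rise was not tested.

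As a description, each member's counts were divided by the Ptprc counts of the same library. In ΔTreg mice this ratio lay above both control mice for 4 members, Casp4, Nlrp3, Zbp1 and Mlkl, as it did for 1.92% of all genes tested. Casp4 went from 0.0806 and 0.114 counts per Ptprc count in control to 0.228, 0.283 and 0.202 in ΔTreg mice. Mlkl went from 0.174 and 0.190 to 0.316, 0.362 and 0.235, and Zbp1 from 0.3602 and 0.0659 to 0.834, 1.18 and 0.710. For Nlrp3 the gap was narrow, 0.0378 and 0.0366 against 0.0525, 0.0428 and 0.0433. Casp1 and Gsdmd overlapped control: Casp1 was at 0.252 and 0.348 in control and at 0.322, 0.336 and 0.270 in ΔTreg mice. The ratio was below control for Casp8, Aim2, Ripk1 and Ripk3, as it was for 94% of all genes tested.

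**Figure D4:**
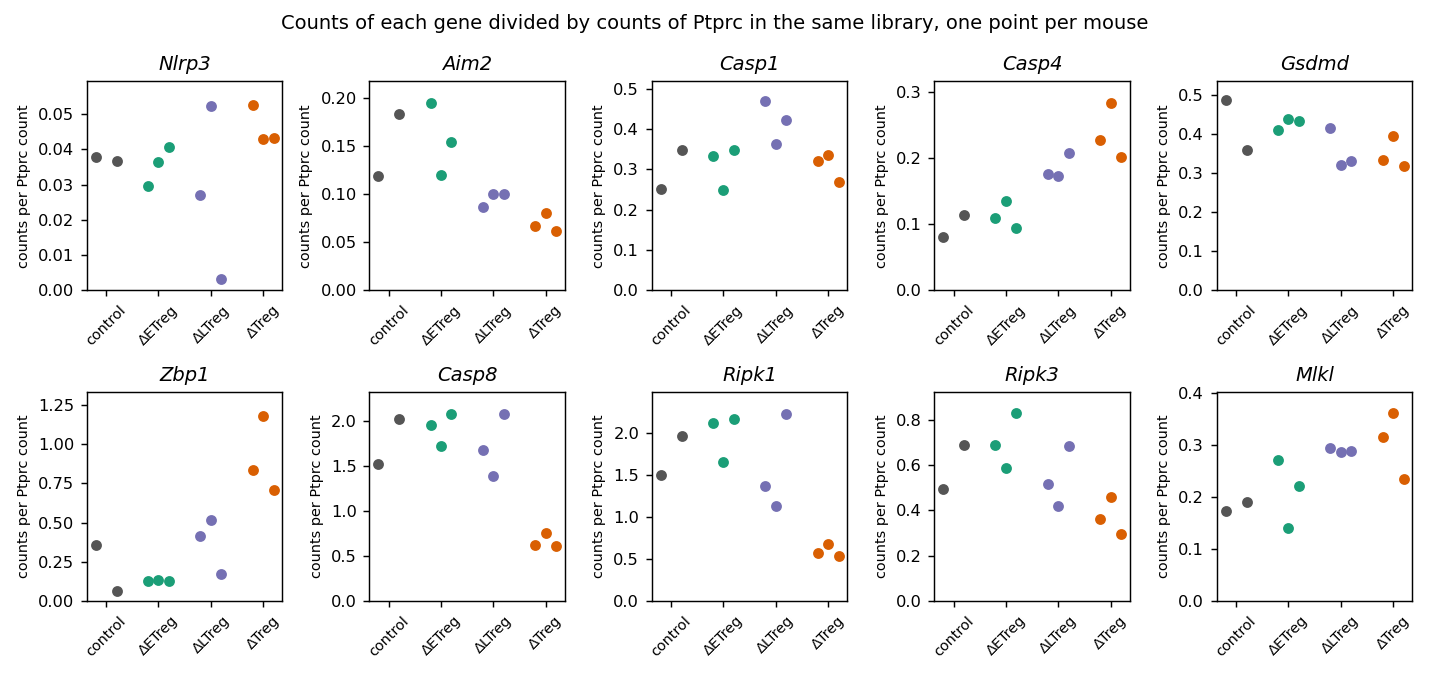
Counts of each gene per count of Ptprc in the same library, 1 point per mouse, linear axes from 0. Casp4, Nlrp3, Zbp1 and Mlkl lie above both control mice in all 3 ΔTreg mice, Casp8, Aim2, Ripk1 and Ripk3 lie below, and Casp1 and Gsdmd overlap.

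Other genes of the same pathways were taken from 4 lists, and the counts of genes called higher in ΔTreg skin stand beside 12.1% of all genes tested. Of the pyroptosis and inflammasome list, 13 of 26 tested genes were higher in ΔTreg than in control skin and 0 lower, with a median log2 fold change of 0.83. The gasdermin Gsdmc2 had 2 and 2 counts in control and 319, 377 and 380 in ΔTreg libraries, a ratio of 162 (95% counting interval 62.9 to 594). Gsdmc was at 4.62 and 3.66 CPM in control and at 72.2, 54.9 and 46.5 CPM in ΔTreg mice (log2 fold change 3.80 ± 0.23, adjusted p = 2.19e-06). These gasdermin genes have close copies that could share reads, so the split between them is uncertain. In ΔLTreg skin Gsdmc went the other way, at 1.10, 1.10 and 0.877 CPM (−2.02 ± 0.27, adjusted p = 0.00250), below both control mice. Gsdma3, a gasdermin of skin epithelium, was higher in both ΔTreg (2.63, adjusted p = 1.95e-06) and ΔLTreg skin (1.30, adjusted p = 0.00144). Gsdma, at a mean of 263 CPM in control against 3.47 CPM for Gsdma3, was called in neither (0.32, adjusted p = 0.130, and 0.22, adjusted p = 0.428). Gsdma2 was not called either (0.52, adjusted p = 0.213, and 0.69, adjusted p = 0.180). Nlrp10, a NLR protein without a leucine-rich repeat, was higher in both ΔTreg (1.95, adjusted p = 1.01e-05) and ΔLTreg skin (1.24, adjusted p = 0.00144). The list had 2 genes higher and 1 lower in ΔLTreg skin, and 0 called in ΔETreg skin.

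Of the necroptosis and death receptor list, 18 of 36 genes were higher and 0 lower in ΔTreg skin, with a median log2 fold change of 0.25. Fasl, named after its values were seen, was at 0 in both control libraries, and the median was 0.25 also with Fasl at the lowest fold that a floor of 3 counts per library allows. Tnfsf10, which encodes the death ligand TRAIL, was at 3.47 and 3.39 CPM in control and at 22.6, 25.1 and 22.8 CPM in ΔTreg mice (2.78 ± 0.11, adjusted p = 1.05e-06). It was also higher in ΔLTreg skin, at 9.42, 10.2 and 8.92 CPM (1.47 ± 0.11, adjusted p = 2.00e-04). The receptors Tlr4 (1.25, adjusted p = 5.43e-04) and Tnfrsf1b (1.25, adjusted p = 0.00318) and the ubiquitin ligase Birc3, which restrains RIPK1 (1.12, adjusted p = 6.57e-05), were higher in ΔTreg skin. Xiap, an inhibitor of caspases, was lower in ΔLTreg skin by little (−0.22, adjusted p = 0.0304). Tnfsf10 and Xiap were the 2 genes of the list called in ΔLTreg skin, and 0 were called in ΔETreg skin.

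Mitochondrial apoptosis genes moved less, with 8 of 25 tested higher and 0 lower in ΔTreg skin and a median log2 fold change of 0.13. The pore former Bak1 (0.61, adjusted p = 1.44e-05), the BH3-only gene Bcl2l11 (0.40, adjusted p = 0.0394) and the survival gene Mcl1 (0.25, adjusted p = 0.00977) were among those higher. Bcl2, a survival gene, was the one called in ΔLTreg skin, where it was lower (−0.45, adjusted p = 0.0202). Interferon signalling genes were higher in 15 of 18 tested, with 0 lower and a median log2 fold change of 1.29. Irf1, a transcription factor induced by interferons, was at a log2 fold change of 3.41 ± 0.27 (adjusted p = 1.24e-05). Isg15 (2.90, adjusted p = 7.45e-04) and Irf8 (2.13, adjusted p = 5.05e-04) were higher too. The largest change of the list was that of Ifng (5.18 ± 0.77, adjusted p = 7.69e-04). Its mean was only 0.0525 CPM in control against 2.17 CPM in ΔTreg skin, so the size of its change is uncertain. In ΔLTreg skin 2 interferon genes were called higher, Irf1 (1.09, adjusted p = 0.0365) among them, and in ΔETreg skin 0 genes of the mitochondrial and interferon lists were called.

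**Figure D5:**
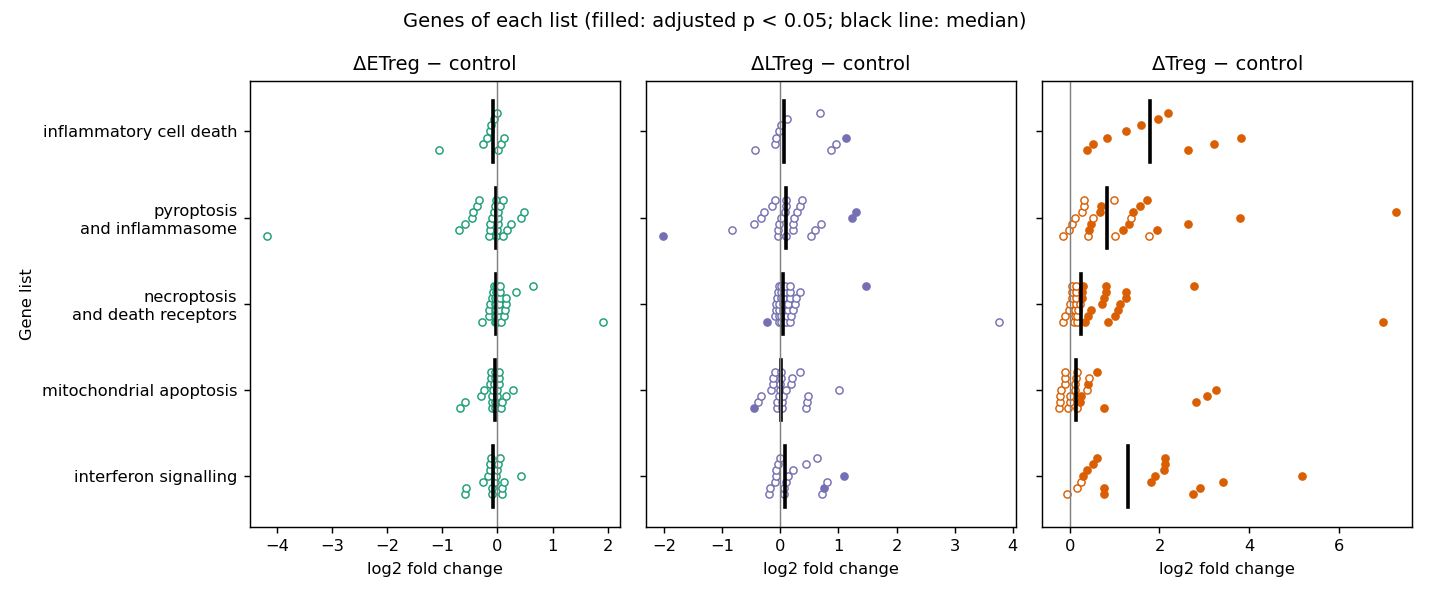
Log2 fold change of every tested gene of the 10 members and of the 4 pathway lists against control, 1 panel each for ΔETreg, ΔLTreg and ΔTreg, with filled points at an adjusted p under 0.05 and a black line at the median. The members' median is 1.78 in ΔTreg skin, that of interferon signalling 1.29 and that of mitochondrial apoptosis 0.13. The point farthest to the left in the ΔETreg panel is Gsdmc2, which had 0 counts in the ΔETreg libraries.

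Finally, the genes whose pattern over the 11 libraries was most like each member were listed by the root mean square difference of log2 CPM after centring each gene on its mean, where 0 is an identical pattern. These are descriptions over libraries that share the same groups and the same leukocyte content. Zbp1 was nearest to Oas3 (0.36) and Oas1g (0.40), antiviral oligoadenylate synthetases, and Mlkl to Psmb10 (0.17), a subunit of the immunoproteasome, and Parp9 (0.21). Casp4 was nearest to B2m (0.22), the light chain of MHC class I, and C4b (0.22), a complement component. Casp1 was nearest to Ly6e (0.14) and Klrk1 (0.18). Gsdmd lay nearest to March1 (0.13) and Clec4a2 (0.14), and Nlrp3 to Clec4a3 (0.34) and Ccl9 (0.34). Aim2 was nearest to Arhgdib (0.16) and Dab2 (0.19), and Ripk3 to Cish (0.10) and Osmr (0.11). Casp8 was nearest to Lgals8 (0.053) and Arpc1b (0.055), and Ripk1 to Rbms1 (0.052) and Picalm (0.054). The difference is not scaled to the size of a gene's change, so members that changed little lie close to many genes. Among the members themselves, Casp8 and Ripk1, both with small changes, were the most alike pair (0.14). Zbp1 and Ripk1, with the largest and the smallest change in ΔTreg against control, were the least (1.95). The distances did not follow the sizes of change alone. Nlrp3 and Casp1, with log2 fold changes of 2.20 and 1.98 in ΔTreg against control, lay 0.80 apart. Casp4 and Mlkl, at 3.21 and 2.64, lay 0.37 apart.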

How the data were processed

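Per the authors, reads were trimmed (Trimmomatic 0.36), aligned to GRCm38 (STAR 2.5.2b) and counted where unique to the exons of a gene (featureCounts, Subread 1.5.2). The authors deposited raw counts of 49315 genes in 11 libraries (1 mouse each, 23377571 to 34159435 counts). Strand setting and annotation release are not given in the sources used here. Names, positions and exon lengths come from GENCODE M21 and promoters from RefSeq, both on GRCm38. Groups were taken from the labels, and all libraries carry the same batch label.

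Tests were run in edgeR 4.0.16 under R 4.3.3 (filterByExpr by group, 18375 genes; TMM scaling; 1 fit of all libraries; quasi-likelihood test; Benjamini-Hochberg adjustment over all genes tested). CPM used TMM-scaled library sizes, log2 CPM a prior count of 2, and counting intervals and floors (3 counts) cover counting error only. Intervals are at 95%. Scripts were tested on simulated data. Alternatives were DESeq2 1.42.0 (the authors' tool), 2 groups only, its size factors, no filter, at least 10 counts in every library, sex as a covariate and leaving out each mouse. The ratio to leukocyte markers was chosen after seeing the data.

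Members and gene lists were chosen with earlier results of these data known. Besides all members and 8 checks of tissue content, each pathway list contributed up to 4 genes with the largest change in ΔTreg against control (adjusted p under 0.05, mean count of at least 50) and up to 3 called in ΔETreg or ΔLTreg, and each member its 2 most alike genes. Some genes that this rule names are not reported here. Replicates are separate mice, and their counts differed by more than counting error (median chi-square 1.02 to 2.86 between replicates, 0.455 for counting error alone).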

Additional observations from a re-analysis of the deposited data

Results flagged for a closer look

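Casp1 and Casp4 were picked out because the change against control after early depletion and after late depletion differed in a direct test of the groups. Casp1 was lower in ΔETreg than in ΔLTreg skin by a log2 fold change of −0.82 (adjusted p = 0.0323), with 3.52, 3.16 and 3.30 CPM in ΔETreg mice and 6.77, 6.82 and 4.07 CPM in ΔLTreg mice. Casp4 was lower by −1.02 (adjusted p = 0.0307), with 1.15, 1.71 and 0.900 CPM against 2.53, 3.25 and 2.00 CPM. Both genes were lower in 3 of 3 ΔETreg mice. The groups were harvested at different ages, and age and the time of DT cannot be told apart. The groups of 2 or 3 mice were too small for a formal outlier test of single mice.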

How the results depend on the processing

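All 10 members were called higher in ΔTreg skin against each other group under every alternative that left out no mouse, except that Nlrp3 was not tested with at least 10 counts in every library and missed the threshold against ΔLTreg with 2 groups only (adjusted p = 0.0560). Leaving out a mouse gave 8 to 10 calls against control and against ΔLTreg and 10 against ΔETreg. In ΔLTreg against control, the 1 call became 0 with DESeq2 (Casp4 adjusted p = 0.0505), 0 with 2 groups only and 4 without a filter, and 0 to 3 when a mouse was left out. In ΔETreg against ΔLTreg, the 2 calls became 0 with 2 groups only and 4 without a filter, and 0 to 4 when a mouse was left out (4 without ΔLTreg replicate 3). With sex as a covariate Mlkl was called in place of Casp4 in ΔLTreg against control (adjusted p = 0.0417 and 0.0552) and in ΔETreg against ΔLTreg (0.0359 and 0.0537), and DESeq2 also called Zbp1 in the latter (0.0495). In ΔETreg against control 0 members were called under every alternative. The causes were not tested.

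Over all genes, the calls in ΔETreg against control went from 1 to 19 with DESeq2, 54 without a filter, 0 with 2 groups only, 10 counts or sex as a covariate, and 0 to 7 without a mouse. In ΔLTreg against control they went from 836 to 154 with 2 groups only, 1790 without a filter, 292 without control replicate 1 and 377 without control replicate 2. In ΔETreg against ΔLTreg they went from 1173 to 540 with 2 groups only, 2173 without a filter, and 353, 573 and 619 without ΔETreg replicate 2, 1 and 3. In ΔTreg against control they went from 3946 to 2026 without control replicate 2, and against ΔLTreg from 3096 to 1987 without ΔTreg replicate 1.

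Some log2 fold changes near 0 changed sign. Mlkl in ΔETreg against control was −0.00331 and became 0.000614 with DESeq2, 0.00818 with 2 groups only, 0.00125 with DESeq2 size factors, 0.00577 without a filter, 0.00910 with 10 counts and 0.0741 with sex as a covariate. With sex as a covariate, Ripk3 in ΔLTreg against control became −0.0051, and Gsdmd and Nlrp3 in ΔETreg against ΔLTreg 0.049 and 0.011. Leaving out a mouse gave ranges, in ΔETreg against control, of −0.54 to 0.26 (Gsdmd), −1.82 to 0.97 (Zbp1), −0.024 to 0.033 (Ripk1), −0.0015 to 0.12 (Ripk3), −0.22 to 0.15 (Mlkl), −0.28 to 0.028 (Aim2) and −0.19 to 0.28 (Casp4). In ΔLTreg against control the ranges were −0.43 to 0.37 (Gsdmd), −1.10 to 0.50 (Nlrp3), −0.039 to 0.089 (Ripk3) and −0.043 to 0.019 (Ripk1). In ΔETreg against ΔLTreg they were −0.0091 to 0.062 (Ripk1), −0.35 to 0.038 (Gsdmd), −0.75 to 0.85 (Nlrp3) and −0.021 to 0.092 (Ripk3). None of these passed the test. In the edgeR fit with sex as a covariate, the sex term (male minus female) was negative for every member, from −1.03 (Zbp1) to −0.04 (Ripk1). Its unadjusted p was under 0.05 for Gsdmd, Zbp1 and Mlkl. None passed adjustment (adjusted p = 0.725 for Mlkl and 0.946 for Zbp1).

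With 2 or 3 mice a group, the low counts of Nlrp3 and the spread of Zbp1 between control mice limit what can be resolved. No paired analysis was possible because the labels give no replicate numbers and tie no mouse of 1 group to a mouse of another, and the replicate numbers used here only name the mice. The ratio to Ptprc lay above control for 4 or 5 members and below for 4 or 5 when a mouse was left out, and for 4 and 3 when the 4 leukocyte markers replaced Ptprc.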
